A study of Mus musculus with 24 samples.

Results

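The serotonin receptor genes and the gene of the serotonin-degrading enzyme monoamine oxidase A were followed in bulk RNA of mouse prefrontal cortex, taken at postnatal day 40. The members were fixed by name: the 9 receptor genes Htr1a, Htr1b, Htr1f, Htr5a, Htr2a, Htr2c, Htr4, Htr7 and Htr3a, and Maoa. All 10 were among the 18240 genes measured, and all 10 passed the filter on low values, a mean of at least 10 normalized counts over the 24 libraries. The first group was Dyrk1a+/I48X heterozygotes (HT) given fluoxetine, a serotonin reuptake inhibitor, and the second was HT mice given lithium, a mood stabiliser. The others were HT mice on vehicle and wild-type (WT) mice on vehicle. All mice were of strain C57BL/6J, each of these 4 arms held 3 female and 3 male libraries, and the drug-treated libraries analysed here are all HT. The sources used here do not state the doses, the length of treatment or what the vehicle was.

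Serotonin reaches the cortex in axons of the raphe nuclei, and the transporter that fluoxetine blocks takes it back up into those axons. Receptors of types 1 and 5 couple to inhibitory G proteins, type 2 to Gq and phospholipase C, types 4 and 7 to Gs and adenylyl cyclase, and type 3 forms a cation channel. Monoamine oxidase A, an enzyme of the outer mitochondrial membrane, breaks serotonin down after reuptake.

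Depth ran from 24133344 to 35940460 reads per library. The 10 cortical excitatory neuron markers were all measured and none was at 0 in any library, with a summed level of 96763 to 193951 normalized counts (reads scaled by the authors to a common library size). The libraries differed in how much RNA of the olfactory bulb, which borders the frontal cortex, they held. A bulb score, the mean log2(value + 1) of 10 bulb markers, was 10.3 to 10.9 in 6 libraries and 4.80 to 9.43 in the other 18. These 6 libraries, called bulb-high, are HT fluoxetine female 1 and male 1, HT lithium male 1, HT vehicle female 2 and male 3, and WT vehicle female 2. HT vehicle male 1 and WT vehicle female 1 had the highest level of the striatal gene Drd2, and HT vehicle female 1 and HT fluoxetine female 2 the highest of the choroid plexus gene Ttr. Dyrk1a itself was at 2476 ± 97.5 in HT fluoxetine, 2447 ± 113 in HT lithium, 2355 ± 61.2 in HT vehicle and 2200 ± 90.8 in WT vehicle libraries (SD, n = 6 each). No fall in HT is seen: each HT arm had a higher mean than WT vehicle, and the cause was not tested. A stop codon may or may not change transcript amounts, so these values are no test of the labelled genotypes.

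No member passed the test with fluoxetine, with lithium or with genotype. Over the 24 libraries 7 of the 10 changed with the bulb score in limma (adjusted p under 0.05), a share near the 53.5% of all genes that did. Htr1a, Htr1b, Htr5a and Htr2a were lower at high scores, Htr3a, Htr1f and Htr7 were higher, and Maoa was nearly level throughout. Within the 18 libraries that are not bulb-high, Htr2a alone passed. The start regions of 3 members are shown because they stand for 3 behaviours and lie wholly outside the span of the gene in GENCODE M21: Htr1b was lower in bulb-high libraries, Htr2c varied most among the well-measured receptors and Maoa varied least. Each is the run of 250 bases before the RefSeq start on GRCm38.p6, 5′ to 3′ on the gene's strand, with capitals marking a GC box (GGGCGG on either strand).
Htr1b, chr9:81633833-81634082, minus strand: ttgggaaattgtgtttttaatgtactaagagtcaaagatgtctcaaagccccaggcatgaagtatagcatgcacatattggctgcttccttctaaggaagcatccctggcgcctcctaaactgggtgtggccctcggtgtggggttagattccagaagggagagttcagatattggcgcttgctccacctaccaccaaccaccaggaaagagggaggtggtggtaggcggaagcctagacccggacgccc
Htr2c, chrX:146962263-146962512, plus strand: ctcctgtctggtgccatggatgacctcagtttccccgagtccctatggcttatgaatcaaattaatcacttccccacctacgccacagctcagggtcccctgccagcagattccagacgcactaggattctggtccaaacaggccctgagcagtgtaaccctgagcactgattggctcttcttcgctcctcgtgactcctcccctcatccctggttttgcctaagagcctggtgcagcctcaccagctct
Maoa, chrX:16619448-16619697, plus strand: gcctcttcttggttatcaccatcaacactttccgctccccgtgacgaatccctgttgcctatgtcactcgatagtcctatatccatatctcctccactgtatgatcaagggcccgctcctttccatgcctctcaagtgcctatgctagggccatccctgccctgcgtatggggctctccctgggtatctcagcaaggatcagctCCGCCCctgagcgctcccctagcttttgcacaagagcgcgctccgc
RefSeq start regions were read for 8 of the 10 members, all but Htr3a and Htr4. A GC box stood in those of Htr1a, Htr2a and Maoa, 1 copy each, and in 32.7% of all 32851 windows of the same length. The T-box core GGTGTGA, the E-box CAGATG and the TATA box TATAAA, searched on both strands, were found in none of the 8 windows and in 3.33%, 14.4% and 12.4% of all windows. The Htr7 window, which lies partly inside the span of its gene in GENCODE M21, held 41 CpG pairs and was 82.0% G or C. The windows of Htr1b, Htr2c and Maoa, wholly outside their genes, held 6, 5 and 11 CpG pairs. The median over all windows was 6. These matches describe letters and not binding sites.

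Levels can be compared between genes only per length, here per kilobase of the union of annotated exons. Htr2a stood highest with 260.3 ± 44.4 normalized counts per kilobase (SD, n = 24 libraries), level with or above 73.2% of all genes with a known length. Maoa followed at 228 ± 12.04, then Htr1a at 125 ± 32.9, Htr5a at 124 ± 15.4 and Htr2c at 103 ± 34.3. Htr3a stood at 80.1 ± 18.4, Htr7 at 54.3 ± 8.62, Htr1b at 53.3 ± 17.3 and Htr1f at 39.2 ± 7.93. Htr4 was lowest at 4.42 ± 4.24, level with or above 8.20% of genes. In this order 3 gaps between neighbours were larger than the SD of the difference over libraries and had the same sign in 24 of 24 libraries: Maoa over Htr1a, Htr3a over Htr7, and Htr1f over Htr4. The other 6 gaps between neighbours were smaller than that SD. Htr1a and Htr5a differed by 0.767 ± 20.2 per kilobase, and Htr7 and Htr1b by 0.982 ± 23.5. The place of Htr2c depends on its length, because its 7 annotated transcripts make a union of 9328 bases where the longest transcript has 4883. With the longest transcript its level was 196 ± 65.5 per kilobase, next in the order after Htr2a and Maoa. The order also differs between bulb-high libraries and the others. In the 6 bulb-high libraries Maoa stood above Htr2a, at 230.0 ± 16.2 and 207 ± 30.0 per kilobase, and Htr3a at 106 ± 13.6 stood above Htr5a at 101 ± 10.6 and Htr1a at 77.0 ± 16.6. In the other 18 libraries Htr2a stood at 278 ± 32.6, Maoa at 228 ± 10.9, Htr1a at 141 ± 17.8 and Htr5a at 131 ± 7.10. There Htr1b at 60.8 ± 12.5 stood above Htr7 at 50.8 ± 6.02, and Htr7 was the higher of this pair in only 8 of all 24 libraries.

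**Figure D1:**
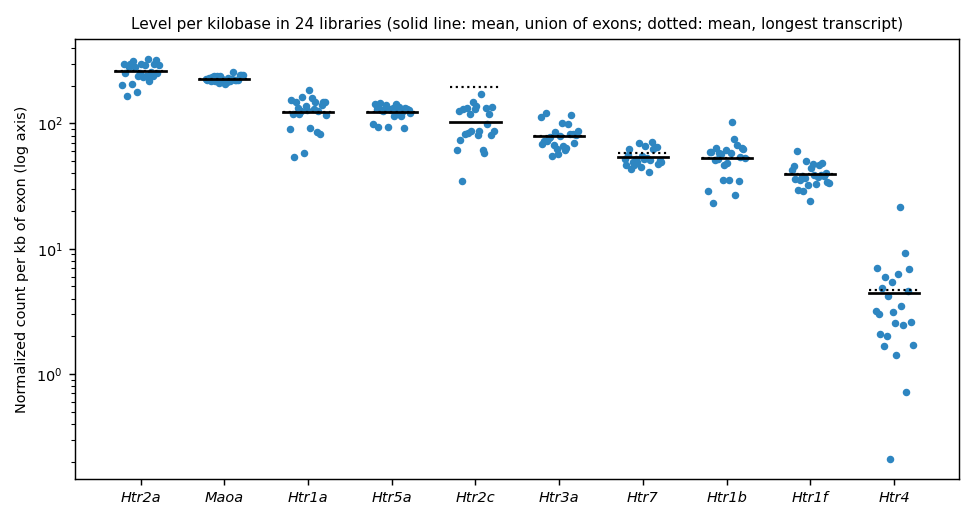
Normalized count per kilobase of exon on a log axis for each member, 1 point per library (24 per gene), in order of the mean; the solid line is the mean with the union of exons and the dotted line with the longest transcript. Htr2a and Maoa stand highest, at 260.3 and 228, Htr4 lowest at 4.42, and the points of Maoa are the most tightly grouped.

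Against vehicle in HT mice, fluoxetine moved none of the 10 members past the threshold in limma, where 0.0119% of the 16825 genes tested were called. None had an unadjusted limma p under 0.05, where 961 of all genes did. Both edgeR and DESeq2 also called 0 of 10, against 0.0119% and 0.0951% of all genes. The median log2 fold change was -0.11 over the members and -0.0013 over all genes tested. A positive value was found for 2 of 10 members and for 8333 of the 16825 genes. The olfactory bulb markers were positive in 10 of 10, with a median of 0.7 and 0 called. The part of bulb RNA in the member median was not tested. For each member the values of the 6 HT fluoxetine libraries overlapped those of the 6 HT vehicle libraries, while 0.47% of all genes had no overlap. The smallest adjusted p of a member was 0.983. Fold changes below are log2 values on the log2(value + 1) scale ± standard error from limma, each with its 95% interval, and levels are normalized counts.

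Htr1a encodes the inhibitory receptor that is the autoreceptor of raphe neurons and, in cortex, a receptor of pyramidal cells and interneurons (ENSMUSG00000021721, chromosome 13, 105443639 to 105448122 on GRCm38). It ran from 242 through a median of 561 to 694 in HT fluoxetine libraries, and from 386 through a median of 624 to 826 in HT vehicle libraries. The low end of both arms was held by bulb-high libraries, and the highest value was that of HT vehicle female 1. The fold change was -0.22 ± 0.27 (-0.78 to 0.33, limma adjusted p = 0.983). HT lithium libraries ran from 260.4 through 574 to 734, and WT vehicle libraries from 370 through 596 to 665.

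Htr1b, the terminal autoreceptor of serotonin axons and a presynaptic receptor on other axons (ENSMUSG00000049511, chromosome 9, 81628291 to 81633828), ran from 110.1 through 260 to 304 in HT fluoxetine and from 127 through 252 to 483 in HT vehicle libraries. Its highest value of all 24 was in HT vehicle male 1, the library with the highest Drd2 level, where the 11 striatal markers summed to 42328 against 6830 to 21240 in the other 23. The fold change with fluoxetine was -0.24 ± 0.30 (-0.87 to 0.39). Values ran from 167 through 257 to 293 in HT lithium libraries, and from 163 through 276 to 318 in WT vehicle libraries. Without HT vehicle male 1 and the other 3 libraries highest in Drd2 or Ttr the value was -0.11. The part of striatal tissue in this value was not tested.

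Htr1f, another receptor coupled to inhibitory G proteins (ENSMUSG00000050783, chromosome 16, 64924729 to 65105854), ran from 75.3 through 101 to 154 in HT fluoxetine and from 85.2 through 107 to 122 in HT vehicle libraries. The arms overlapped almost wholly and the fold change was -0.01 ± 0.17 (-0.37 to 0.35). HT lithium libraries ran from 62.0 through 89.3 to 129, and WT vehicle libraries from 85.8 through 99.9 to 125. Htr5a, a receptor of the brain that also couples to inhibitory G proteins (ENSMUSG00000039106, chromosome 5, 27842149 to 27855088) ran from 500.3 through 692 to 778 in HT fluoxetine and from 615 through 678 to 769 in HT vehicle libraries. HT fluoxetine held both the lowest and the highest of these 12 values, and the fold change was -0.06 ± 0.12 (-0.31 to 0.19). Values ran from 507 through 694.5 to 749 in HT lithium libraries, and from 497 through 675 to 715 in WT vehicle libraries.

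Htr2a encodes the Gq-coupled receptor of cortical pyramidal cells at which serotonergic psychedelics act (ENSMUSG00000034997, chromosome 14, 74640840 to 74709494). It ran from 936 through 1496 to 1679 in HT fluoxetine libraries and from 1223 through 1499 to 1821 in HT vehicle libraries. The medians of the arms lay within 3 counts of each other, and the 2 lowest fluoxetine values, 936 and 1130, were those of its bulb-high libraries. The fold change was -0.12 ± 0.15 (-0.44 to 0.20). HT lithium libraries ran from 1004 through 1380.4 to 1755, and WT vehicle libraries from 1351 through 1537 to 1812.

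Htr2c, the related Gq-coupled receptor whose RNA is edited by adenosine deaminases and which is abundant in choroid plexus (ENSMUSG00000041380, chromosome X, 146962513 to 147197277), had the widest spread of the well-measured receptors. It ran from 325 through 734 to 1212 in HT fluoxetine and from 544 through 783 to 1601 in HT vehicle libraries, a highest value 4.92 times the lowest. Values ran from 787 through 1169 to 1396 in HT lithium libraries, and from 748 through 1017 to 1271 in WT vehicle libraries. Gene-level values cannot show editing. The fold change with fluoxetine was -0.24 ± 0.31 (-0.88 to 0.41), and -0.02 without the 4 libraries highest in Drd2 or Ttr. HT vehicle female 1, where Ttr stood at 3407 and the 8 choroid plexus markers summed to 3922, had 1281 normalized counts of Htr2c. The highest Htr2c value, 1601, was in HT vehicle male 1, where Ttr was at 4.42. Summed choroid plexus markers ran from 143 to 992 in HT fluoxetine, from 183 to 644 in HT lithium, from 121 to 3922 in HT vehicle and from 97.9 to 512 in WT vehicle libraries, with Folr1 and Otx2 at 0 in some library of the table. In the bulb-high libraries this sum was 512 to 800, and in the others 97.9 to 3922 with a median of 221. Ttr was only 4.98 to 62.8 in the bulb-high libraries, so the sum and Ttr do not go together there. The part of choroid plexus tissue was not tested.

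Htr4, a Gs-coupled receptor that is strong in striatum (ENSMUSG00000026322), was close to the floor of the measurement, with 1 to 95 reads per library. It ran from 8.28 through 15.2 to 34.7 in HT fluoxetine libraries and from 6.98 through 14.9 to 105 in HT vehicle libraries. The value of 105 was again in HT vehicle male 1, and the other 5 HT vehicle libraries reached at most 30.7. HT lithium libraries ran from 1.03 through 17.9 to 29.0, and WT vehicle libraries from 3.55 through 17.6 to 45.0. The fold change was -0.31 ± 0.69, with an interval from -1.75 to 1.13, so that large changes in both directions could not have been told from none. The coefficient of variation was 121% in HT vehicle libraries, and the fold change was -0.07 without the 4 libraries highest in Drd2 or Ttr.

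Htr7, the other Gs-coupled receptor (ENSMUSG00000024798, chromosome 19, 35958734 to 36057507), ran from 148 through 172 to 214 in HT fluoxetine and from 140.5 through 178 to 242 in HT vehicle libraries, with a fold change of -0.09 ± 0.13 (-0.36 to 0.17). Values ran from 152 through 173 to 239 in HT lithium libraries, and from 162 through 193.5 to 222 in WT vehicle libraries. Htr3a, the subunit needed for the serotonin-gated channel and in cortex a gene of interneurons (ENSMUSG00000032269, chromosome 9, 48899213 to 48911099), ran from 144 through 155 to 254 in HT fluoxetine and from 128 through 152 to 208 in HT vehicle libraries. The 2 highest values in each arm were those of bulb-high libraries, and the fold change was 0.15 ± 0.18 (-0.22 to 0.52). HT lithium libraries ran from 114 through 136 to 179, and WT vehicle libraries from 146 through 171 to 243.

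Maoa (ENSMUSG00000025037, chromosome X, 16619698 to 16687818) was the steadiest member, with a coefficient of variation of 5.27% over the 24 libraries, against 12.5% for Htr5a, the steadiest receptor. It ran from 904 through 960 to 995 in HT fluoxetine and from 864 through 927 to 1069 in HT vehicle libraries. The fluoxetine values lay inside the range of the vehicle values. Values ran from 884 through 929.9 to 1006 in HT lithium libraries, and from 924 through 973 to 1014 in WT vehicle libraries. The fold change of 0.02 ± 0.05 had an interval of -0.07 to 0.12, the narrowest of the members, so larger differences on this scale lie outside it.

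**Figure D2:**
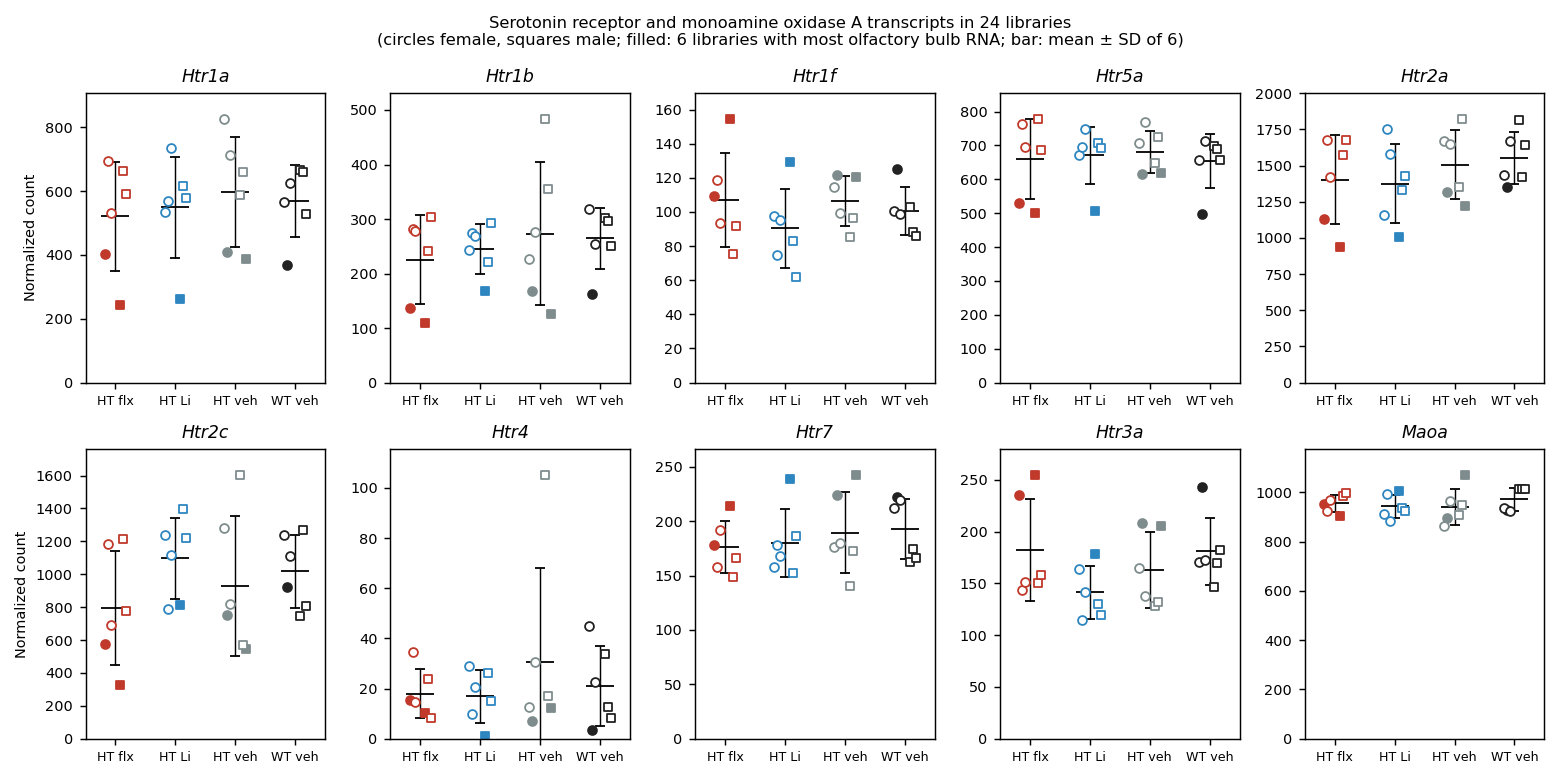
Normalized counts of each member in every library by arm (HT fluoxetine, HT lithium, HT vehicle, WT vehicle); circles are females, squares males, filled points the 6 bulb-high libraries, and bars the mean ± SD of 6 (the Htr4 bar of HT vehicle goes on below the axis). Filled points lie at the low end for Htr1a and Htr1b and at the high end for Htr3a in every arm, and the arms overlap for all 10 members.

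Against HT vehicle, lithium moved none of the 10 members past the threshold in limma (0.0119% of all genes were called). None had an unadjusted limma p under 0.05, where 463 of all genes did. Both edgeR and DESeq2 called 0 of 10 (0% and 0.0178% of all genes). Htr2c stood at 1096 ± 245 in HT lithium and 927 ± 424 in HT vehicle libraries (SD, n = 6), a fold change of 0.33 ± 0.31 (-0.32 to 0.97), and 0.70 without the 4 libraries highest in Drd2 or Ttr. Those 4 include HT vehicle male 1 and female 1, with the highest Htr2c values of that arm (1601 and 1281), and no lithium library. Htr1f stood at 90.4 ± 23.1 in HT lithium and 106 ± 14.8 in HT vehicle, -0.26 ± 0.17 (-0.62 to 0.11), and Htr3a at 141 ± 25.3 and 163 ± 36.5 in the same arms, -0.19 ± 0.18. The other 7 members lay between -0.63 ± 0.69 for Htr4 and 0.004 ± 0.05 for Maoa, with Htr1a at -0.13 ± 0.27, Htr1b at -0.04 ± 0.30, Htr5a at -0.03 ± 0.12, Htr2a at -0.14 ± 0.15 and Htr7 at -0.07 ± 0.13. None of these differences passed the test (limma adjusted p = 1 for every member). Every lithium library carries the batch label P40_L2, with 1 fluoxetine library, female 3, beside them, and all vehicle libraries are P40_L1. The drug and the batch can hardly be told apart, since a batch term rests on that 1 library.

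Between genotypes on vehicle, no member differed past the threshold in limma, which called 0% of genes, and none had an unadjusted p under 0.05, where 455 of all genes did. Of the members edgeR and DESeq2 also called 0, and 0% of genes. Htr2c stood at 927 ± 424 in HT and 1017 ± 222 in WT libraries, -0.22 ± 0.31 (-0.87 to 0.42), and -0.55 without the 4 libraries highest in Drd2 or Ttr. That omission took out HT vehicle male 1 and female 1, the highest of their arm (1601 and 1281), and WT vehicle female 1 (1238). Htr2a stood at 1506 ± 240 in HT and 1554 ± 179 in WT libraries, -0.05 ± 0.15 (-0.37 to 0.27). Htr1a stood at 597 ± 173 in HT and 569 ± 111 in WT libraries, 0.04 ± 0.27 (-0.52 to 0.60). Maoa stood at 941 ± 72.6 in HT and 970.5 ± 46.5 in WT libraries, -0.05 ± 0.05 (-0.14 to 0.05). Htr1b stood at -0.06 ± 0.30, Htr1f at 0.08 ± 0.17, Htr5a at 0.07 ± 0.12, Htr4 at 0.33 ± 0.69, Htr7 at -0.04 ± 0.13 and Htr3a at -0.16 ± 0.18. The HT vehicle libraries serve both here and in the drug comparisons, so these values are not independent of them.

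**Figure D3:**
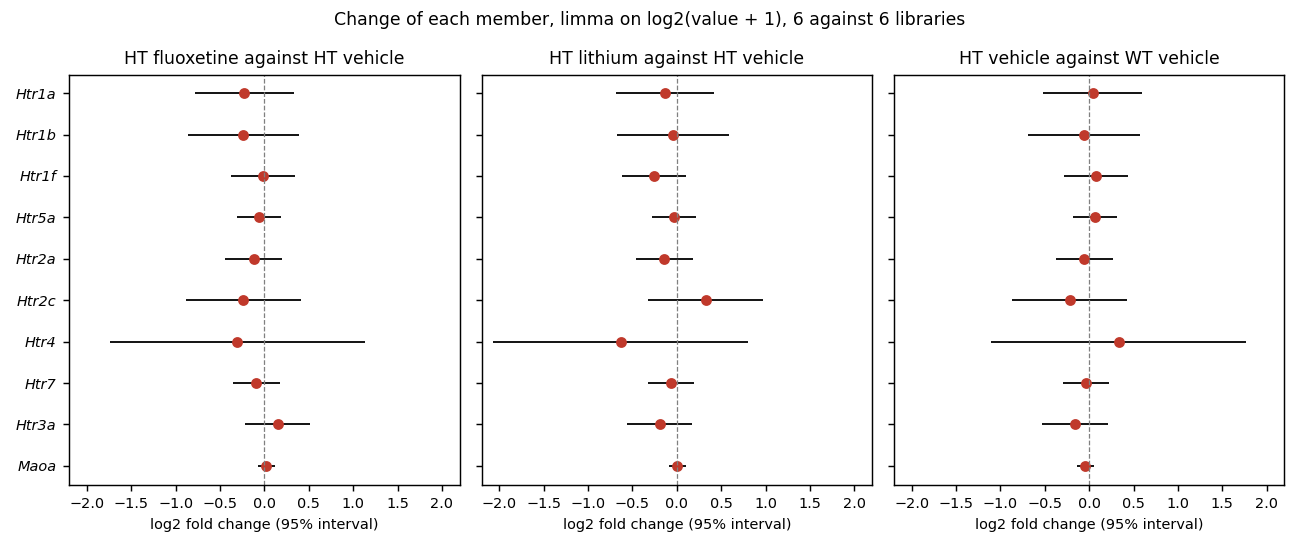
Log2 fold change of each member with its 95% interval from limma, for HT fluoxetine against HT vehicle, HT lithium against HT vehicle and HT vehicle against WT vehicle (6 against 6 libraries each). Every interval includes 0; that of Maoa is the narrowest and that of Htr4 the widest.

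The sexes were compared over all 4 arms. Maoa, which is X-linked, was the only member with an unadjusted limma p under 0.05, where 435 of all 16825 genes had one. Maoa stood at 0.07 ± 0.03 for males against females, with an interval of 0.003 to 0.14. It did not pass after adjustment over all genes (limma adjusted p = 1, with 0.0832% of genes called). The other X-linked member, Htr2c, stood at -0.14 ± 0.22. The difference between the sexes in the fluoxetine effect was called for 0 of 10 members and for 0% of genes. Under an unadjusted limma p of 0.05 were 0 members and 180 of all genes. Htr4 stood furthest from 0 in that difference, at -1.58 ± 1.37, with a fluoxetine effect of -1.10 ± 0.97 in males and 0.48 ± 0.97 in females. Of the members edgeR and DESeq2 called 0 in both of these comparisons, against 0.0773% and 0.119% of genes between the sexes and 0% for the difference in effect.

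The rest of the serotonin pathway was read from 4 lists, of which 43 of 47 genes were tested. In fluoxetine against vehicle limma called 0 of 43, and edgeR and DESeq2 called 0. Of the 43, 0 had an unadjusted limma p under 0.05, where 961 of all 16825 genes did. The other receptors measured, Htr1d, Htr5b and Htr6, averaged 38.4, 25.2 and 107 normalized counts over the 24 libraries. Of these the smallest p-values belonged to Htr5b (0.30 ± 0.39) and Htr1d (-0.15 ± 0.48). Among 8 genes of synthesis, storage and uptake these were Gch1, which makes the cofactor of serotonin synthesis (0.24 ± 0.19), and Slc29a4, a low-affinity membrane transporter of monoamines (0.25 ± 0.20). Among 6 genes of amine breakdown they were the aldehyde dehydrogenase Aldh1a1 (-0.15 ± 0.08) and Maob, the sister enzyme of Maoa (0.13 ± 0.09). Maob stood at 601 ± 47.8 in HT fluoxetine and 550.1 ± 61.5 in HT vehicle libraries (SD, n = 6). Among 26 coupling and effector genes they were the inhibitory G protein subunit Gnai3 (0.24 ± 0.17) and the arrestin Arrb2 (0.07 ± 0.05). Gnai3 and Slc29a4 also stood higher in bulb-high libraries, at 1113 to 1421 against 649 to 1037 in the others for Gnai3 and 309 to 546 against 211 to 329 for Slc29a4. In lithium against vehicle and in HT against WT on vehicle limma, edgeR and DESeq2 called 0 of 43. In each, 1 of 43 had an unadjusted limma p under 0.05, where 463 and 455 of all 16825 genes did. Both times this was Slc22a3, a transporter of organic cations (-0.35 ± 0.14 and 0.35 ± 0.14). Both values rest on the same HT vehicle libraries and are not independent. The serotonin transporter gene Slc6a4 and the raphe transcription factor gene Fev were not among the 18240 genes with values, so they could not be tested. Tph2, the neuronal enzyme of serotonin synthesis, averaged 16.9 ± 5.90 over the 24 libraries, from 9.42 to 38.2.

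Bulb-high libraries stood apart in the receptors. Htr1a ran from 242 through a median of 378 to 410 in these 6 libraries, against 527 through 620.1 to 826 in the other 18. Htr1b ran from 110.1 through 150 to 168 in the 6 and from 222 through 278 to 483 in the 18. Htr5a ran from 497 through 519 to 619 in the 6 and from 648 through 698 to 778 in the 18. These 3 members were lower in every bulb-high library than in any other, as were 9.91% of all 16825 genes. No member was higher in every bulb-high library, as 8.46% of genes were.

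Other members overlapped between the 2 sets. Htr3a ran from 179 through 222 to 254 in the 6 libraries and from 114 through 149 to 182 in the 18. Htr1f ran from 110 through 123 to 154 in the 6 and from 62.0 through 94.5 to 119 in the 18, and Htr7 from 178 through 223 to 242 against 140.5 through 170.2 to 219.5. Htr2c averaged 655 ± 216 in the 6 and 1059 ± 285 in the 18, and Htr4 averaged 8.28 ± 5.48 in the 6 and 26.1 ± 22.2 in the 18 (SD). Htr2a ran from 936 through 1176 to 1351 in the 6 and from 1155 through 1610 to 1821 in the 18. Maoa showed no such shift, at 894 through 939 to 1069 and 864 through 942 to 1014. Summed markers of cortical excitatory neurons were 96763 to 126462 in the 6 libraries and 152873 to 193951 in the 18, and those of inhibitory neurons 46609 to 54953 and 29016 to 41109. In bulk tissue fewer cells of a type and less RNA per cell cannot be told apart, and the part of tissue makeup in the receptor levels was not tested.

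Fitted as a slope on the bulb score within the 8 groups, 7 of 10 members passed in limma, where 53.5% of all genes did. Per unit of score Htr1a changed by -0.18 (-0.24 to -0.12, limma adjusted p = 3.69e-05), Htr1b by -0.20 (-0.27 to -0.12, adjusted p = 0.000115), Htr2a by -0.11 (-0.14 to -0.08, adjusted p = 2.91e-06) and Htr5a by -0.07 (-0.10 to -0.04, adjusted p = 0.000739). In the other direction in limma Htr3a changed by 0.13 (0.09 to 0.16, adjusted p = 5.41e-06), Htr1f by 0.09 (0.03 to 0.14, adjusted p = 0.00781) and Htr7 by 0.06 (0.02 to 0.10, adjusted p = 0.0163). Htr2c at -0.11 and Htr4 at -0.25 did not pass in limma (adjusted p = 0.0800 and adjusted p = 0.0796), nor did Maoa at 0.002 (adjusted p = 0.892). In the 18 libraries outside the bulb-high set, where 5.16% of genes passed, limma called Htr2a alone, at -0.10 (-0.15 to -0.04, adjusted p = 0.0390), and Htr3a stood at 0.07 (0.01 to 0.12, adjusted p = 0.135). With the bulb score as a covariate no member was called in any of the 3 comparisons of arms, and none was without it. The share of all genes called with this covariate is not given here. The fluoxetine values of Htr1a, Htr1b and Htr2a were then -0.08, -0.08 and -0.03, and those of the other members are not given here. The part of bulb tissue in the fluoxetine values was not tested.

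**Figure D4:**
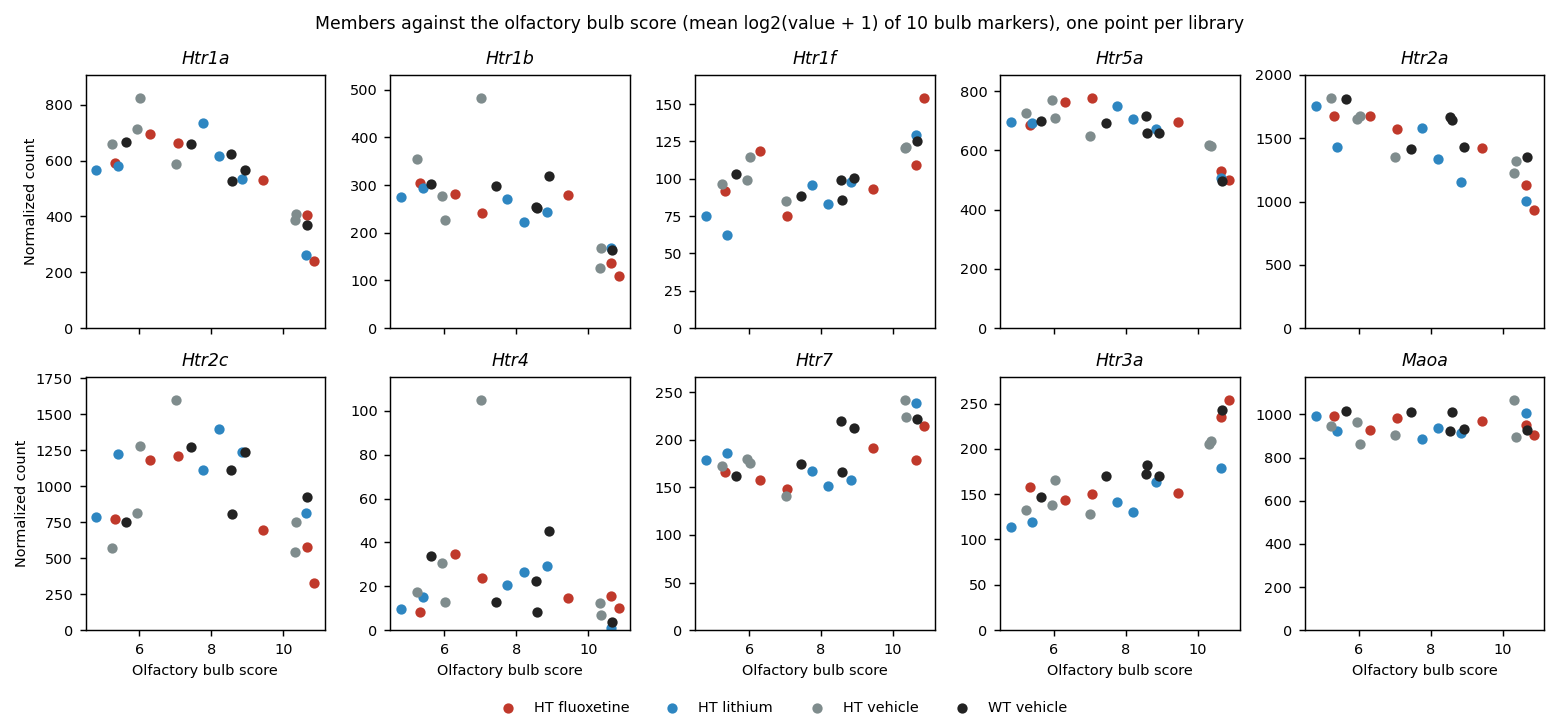
Normalized count of each member against the olfactory bulb score, 1 point per library, coloured by arm. The 6 libraries at scores of 10.3 and above are the lowest of the 24 for Htr1a, Htr1b and Htr5a and come from all 4 arms, while Maoa is flat.

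The genes most like each member were found by the correlation of log2(value + 1) over the 24 libraries among all tested genes, given as a description since the libraries share tissue makeup and depth differences. Htr1a was most like Pde1a, a calcium- and calmodulin-dependent phosphodiesterase, the kinesin heavy chain gene Kif5c and the sodium channel subunit Scn2b (Pearson r = 0.97, 0.96 and 0.96). Htr2a was most like Frrs1l, an auxiliary protein of AMPA receptors, the stress sensor Atf6 and Plcb1, the phospholipase C that Gq-coupled receptors activate (r = 0.95 each). Htr5a was most like Ak5, Faim2 and Spock1 (r = 0.94 to 0.95), and Htr1b like Gprin3, the transcription factor Foxp1 and the deubiquitinase Cyld (r = 0.93 to 0.96). Htr2c was most like Lmo3, a LIM-domain transcriptional regulator, Zfp536 and Coro7 (r = 0.91 to 0.96). Lmo3 ran from 1323 to 3706 in HT fluoxetine, 2654 to 4430 in HT lithium, 1919 to 3818 in HT vehicle and 2465 to 3882 in WT vehicle libraries. Htr3a was most like Cndp1, Ankrd44 and Col24a1 (r = 0.90 to 0.92), Htr4 like Scap, Capns1 and Arhgef15 (r = 0.84 to 0.88), Htr1f like Gm46430, Ung and Ttf1 (r = 0.85 to 0.87) and Htr7 like A830036E02Rik, Gm43843 and Dgat2l6 (r = 0.82 to 0.83). Maoa had the lowest values of likeness, 0.70 to 0.72 with Hpf1, Ccz1 and AC121821.1. Among the members, Htr1a and Htr5a moved most closely together (r = 0.91), followed by Htr1a and Htr2a (r = 0.83), and Htr1b and Htr3a were the most opposed (r = -0.80).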

How the data were processed

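Bulk RNA was sequenced from prefrontal cortex, 24 libraries in 8 groups of 3. The authors deposited 1 table that gives 18240 Ensembl genes as normalized read signal; the values are whole multiples of one step per library, as counts divided by a size factor are. Per the submitters' processing notes, the tools were DESeq2 1.19.11 and R 3.6.0 with Salmon 0.11.2, on the build GRCm38, with no role stated; the sources used here do not state the filter on genes or the counting strand. Whole reads came back for 100% of values within 0.01 of a read, and the depth was 24133344 to 35940460 reads per library. GENCODE M21 named 18227 of the 18240 identifiers.

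The main test was limma 3.58.1 (R 4.3.3, with its trend option). It was run on log2(value + 1) of the 16825 genes averaging 10 or more, in one fit of 8 group means with both sexes weighted equally; this scale shrinks the changes of low genes. P-values were adjusted by Benjamini-Hochberg over these 16825, and a gene was called under 0.05. Because the table holds normalized values and not counts, edgeR 4.0.16 and DESeq2 1.42.0 were run on the recovered reads as alternatives only. The fit was tested on simulated data.

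All 10 members were described in every comparison; other pathway genes came from 4 lists, of which those called, or the 2 with the smallest p, were named. The members, lists and tests were chosen with earlier results of these data known, and the bulb score as a covariate and as a slope after the data were seen. The labels do not tie libraries to separate animals, so the p-values cover the spread among libraries only, some of which may be technical. The library with the least different partner still differed from it by a chi-square of 4.53 per gene, where sampling noise gives 1.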

Additional observations from a re-analysis of the deposited data

Results flagged for a closer look

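In 40 sets of 6 libraries, 10 members in each of 4 arms, 4 values stood far from the rest of their arm; chance flags about 1 in 20 sets, or 2 of 40. Htr4 in HT vehicle male replicate 1 stood at 105 normalized counts, in the library with the highest level of striatal genes, and the other 5 HT vehicle libraries at 6.98 to 30.7. Htr5a in HT lithium male replicate 1 stood at 507, below the other 5 lithium libraries at 673 to 749. WT vehicle female replicate 2 was the lowest of its arm for Htr5a, at 497, and the highest for Htr3a, at 243. The last 2 libraries are both bulb-high, and the part of their tissue makeup in these values was not tested.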

How the results depend on the processing

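No member was called under any alternative in any of the 5 comparisons (24 to 35 alternatives each, smallest adjusted p 0.527). The main limma fits called only 0% to 0.0832% of all genes, and the shares under the alternatives are not given here. Of 31 values, 10 kept their sign throughout, and 21 of 368 values outside the omissions turned sign, none of them called. With fluoxetine, Htr1f stood at 0.035 with a batch term, 0.011 in edgeR and 0.010 in DESeq2, Htr5a at 0.038 without the bulb-high libraries, and Maoa at -0.011 without the 4 libraries highest in Drd2 or Ttr. Between genotypes, Htr1a stood at -0.057 without those 4 and -0.105 with the bulb score as covariate, Htr7 at 0.075 and 0.011 under the same settings, Htr1b at 0.186 without the bulb-high libraries, 0.029 in edgeR and 0.030 in DESeq2, and Htr2a at 0.030 without the bulb-high libraries. With lithium, Htr1a, Htr1b and Maoa stood at 0.005, 0.170 and -0.039 without the 4 libraries, Htr1f, Htr3a and Maoa at 0.028, 0.086 and -0.042 with a batch term, Htr7 at 0.012 without the bulb-high libraries and Maoa at -0.002 in DESeq2. Without the bulb-high libraries the count of members with a slope on the score called was 1 in place of 7. The share of all genes called was 5.16% in place of 53.5%. The slopes of Htr2c, Htr4, Htr7 and Maoa turned to 0.11, 0.124, -0.027 and -0.010. The cause was not tested beyond the 6 fewer libraries.

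Leaving out each library in turn turned the sign of these values, none of them called, which ran, with fluoxetine, Htr1a -0.375 to 0.004, Htr1f -0.160 to 0.097, Htr5a -0.129 to 0.030, Htr2a -0.197 to 0.013, Htr2c -0.450 to 0.024, Htr4 -0.597 to 0.156, Htr7 -0.182 to 0.014 and Maoa -0.002 to 0.057. Between genotypes it gave Htr1a -0.072 to 0.192, Htr1b -0.257 to 0.224, Htr5a -0.013 to 0.118, Htr2a -0.137 to 0.007, Htr4 -0.144 to 0.690 and Htr7 -0.142 to 0.053. With lithium it gave Htr1a -0.284 to 0.066, Htr1b -0.324 to 0.157, Htr5a -0.070 to 0.051, Htr7 -0.155 to 0.040 and Maoa -0.021 to 0.038. Others kept their sign and still moved by over 1.5 times. Among them Htr1b with fluoxetine ran from -0.520 to -0.021 and Htr3a from 0.032 to 0.261, Htr2c from -0.475 to -0.086 between genotypes and from 0.191 to 0.580 with lithium, and Htr4 with lithium from -1.006 to -0.067. With the replicate block the number of members called was 0 in each comparison, as without it. Libraries with the same number deviated together, with a correlation over 0.1, in 1 of 6 pairs for fluoxetine (-0.695 to 0.267), 1 of 6 for lithium (-0.570 to 0.199) and 5 of 6 for genotype (-0.157 to 0.591, the own number highest in 3). No comparison had every pair over 0.1, so the block was not taken as a pairing, although the genotype pairs come close. With the longest transcript Htr2c stood at 196 per kilobase and 7 members kept their place in the order of levels, and 8 did without the 4 libraries or, added after the data were seen, without the bulb-high ones. Htr4 had the fewest reads, a median of 15.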
